A study of Mus musculus with 12 samples.

Results

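The 10 genes Tgfb1, Tgfb2, Tgfb3, Tgfbr1, Tgfbr2, Smad6, Smad7, Id1, Id2 and Id3, which encode ligands, receptors, inhibitory Smads and Id proteins of the TGF-β and BMP pathways, were taken by symbol from the 53715 genes of the count table. All 10 were found under 1 Ensembl identifier each, and all 10 passed the filter on low counts, which kept the 17779 genes with more than 10 counts in at least 1 library. The RNA-seq data covered primary mouse liver cells of the strain C57BL/6JOlaHsd in 3 groups of 4 libraries. Hepatoblasts were Dlk1+ cells sorted with magnetic beads from pooled livers of E14.5 embryos, Diff. hepatocytes were such hepatoblasts after 4 days of culture toward hepatocytes on fibronectin with serum, ITS-X, dexamethasone and Matrigel, and mature hepatocytes were perfused from livers of male mice aged 8-12 weeks. No group carried an engineered allele. The comparisons ask how pathway transcripts differ between the progenitor, its cultured progeny and the adult cell, and age, sex, culture and mode of isolation cannot be told apart in the comparisons with adult cells. The sex of the embryos is not given.

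TGF-β ligands are made as latent dimers that are released in the matrix and then bind the type II receptor Tgfbr2, which recruits and phosphorylates the type I receptor Tgfbr1. Activated type I receptors of the TGF-β branch phosphorylate Smad2 and Smad3, those of the BMP branch phosphorylate Smad1, Smad5 and Smad9, and both sets enter the nucleus with Smad4. Smad6 and Smad7 are induced by the pathway and act back on the receptors, and the Id proteins are helix-loop-helix factors without a DNA-binding region that are known as direct targets of BMP signals. In the liver the TGF-β branch is known for effects on matrix and on bile duct fate, and the BMP branch for hepcidin and iron control.

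Library totals ranged from 21523329 to 25216977 counts in hepatoblasts, 19581551 to 22026087 in Diff. hepatocytes and 20043218 to 23791477 in mature hepatocytes. Levels are given as CPM, the counts of a gene scaled to a common library size, after TMM scaling of library sizes in edgeR, with factors of 1.23 to 1.44 in hepatoblasts, 1.02 to 1.08 in Diff. hepatocytes and 0.677 to 0.778 in mature hepatocytes. A gene was called changed at an adjusted p under 0.01 in edgeR's quasi-likelihood test and a log2 fold change over 1 in size. Summed markers of the labelled cells followed the order of the labels, though not every single marker did. The hepatoblast genes Dlk1, Afp, Gpc3 and Igf2 summed to 31400 to 52900 CPM in hepatoblasts, 16600 to 21100 in Diff. hepatocytes and 37.1 to 67.9 in mature hepatocytes. The 7 hepatocyte genes summed to 32700 to 55400, 53400 to 61800 and 112000 to 158000 CPM, so hepatoblasts and Diff. hepatocytes overlapped. Alb, most of this sum, was at 27800 to 47200 and 37000 to 43500 CPM in these 2 groups. Cps1 rose from 16.7 to 29.9 CPM to 5300 to 6190 CPM, while Ttr fell from 1450 to 2510 CPM to 905 to 1140 CPM. Hepatoblast replicate 1 stood apart from the other hepatoblast libraries, with the lowest sum of both lists and with 2640 CPM of erythroid markers against 318 to 525 in the others.

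The 3 ligands, Smad7, Id2 and Id3 were each called in at least 1 of the 3 comparisons, and Tgfbr1, Tgfbr2, Smad6 and Id1 in none. Of the 10 genes, 2 were called higher in Diff. hepatocytes than in hepatoblasts, Tgfb2 and Tgfb3, where 14.9% of all genes tested were called higher, and 0 were called lower by edgeR, where 14.0% of all genes were. At an unadjusted p under 0.05 in edgeR 1 of the 10 was lower, Tgfb1, and DESeq2 called that 1. In mature hepatocytes against hepatoblasts 3 were called higher, namely Smad7, Id2 and Id3, against 20.1% of all genes, and 3 were called lower, the 3 ligands, against 24.7% of all genes. In Diff. hepatocytes against mature hepatocytes, Tgfb2 and Tgfb3 were called higher, against 20.2% of all genes, and Smad7, Id2 and Id3 lower, against 15.6% of all genes. Median log2 fold changes of the 10 genes were 0.04, -0.53 and 0.29 in the 3 comparisons, beside -0.01, -0.15 and 0.09 over all genes tested. Each pair of groups that was called did not overlap in any library, for which the exact two-sided permutation test over the 70 assignments of libraries gives p = 0.0286, the smallest it can give for 4 libraries against 4. Because these pairs were picked by calls on the same values, the separation and this p add no separate support. The share of separated pairs over all genes was not computed.

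**Figure D1:**
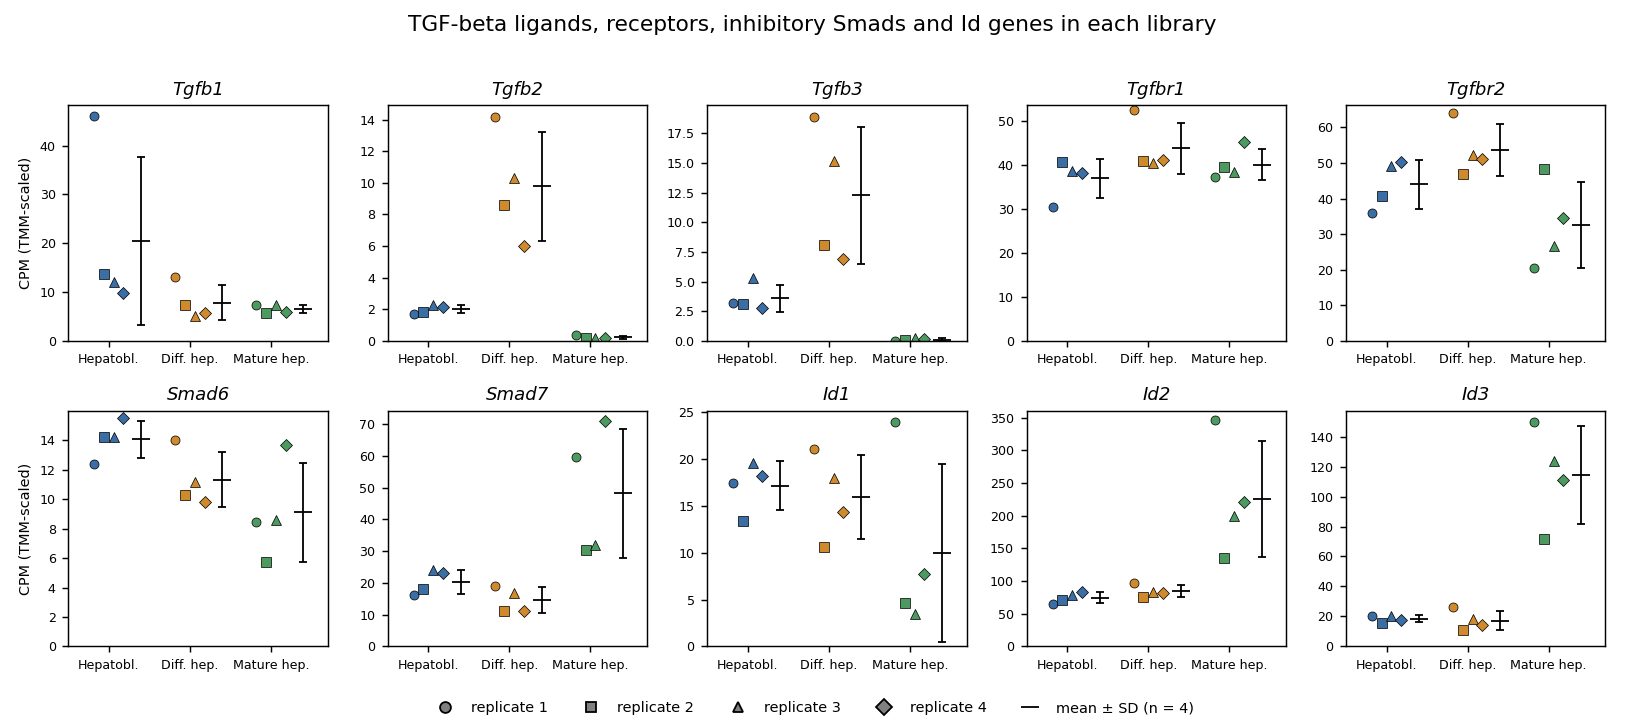
CPM after TMM scaling (vertical axis, from 0) of each of the 10 genes in each library, by group along the horizontal axis, with the mean ± SD of 4 libraries at the right of each group. Tgfb2 and Tgfb3 are highest in Diff. hepatocytes and near 0 in mature hepatocytes, while Smad7, Id2 and Id3 are highest in all 4 mature libraries.

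Tgfb1, at chr7:25687002-25705077 (GRCm38, + strand), is the ligand best known from platelets and macrophages and is widely expressed. Its level was 46.1, 13.7, 12.1 and 9.84 CPM in hepatoblast replicates 1 to 4. Diff. hepatocytes held 13.0, 7.4, 5.15 and 5.77 CPM, and mature hepatocytes 7.27, 5.65, 7.35 and 5.9 CPM. Hepatoblast replicate 1 was more than 3 times as high as any other hepatoblast library, and all 4 hepatoblast libraries lay above all mature libraries but not above all Diff. hepatocyte libraries. In mature hepatocytes the gene fell by 1.64 on the log2 scale (SE 0.46, adjusted p = 0.00546 in edgeR), and the estimate without hepatoblast replicate 1 was a log2 fold change of -0.87, which was no longer called. Nor was it called without any 1 of the mature libraries, at -1.72 to -1.59. The log2 fold change in Diff. hepatocytes against hepatoblasts was -1.38 (SE 0.45, adjusted p = 0.0166 in edgeR), which was not called, and it was -0.59 without hepatoblast replicate 1. Leaving out hepatoblast replicate 4 or Diff. hepatocyte replicate 1 gave -1.62 and -1.74, which were called. Between Diff. and mature hepatocytes the log2 difference was 0.26 (SE 0.46, adjusted p = 0.637 in edgeR), and it was -0.10 without Diff. hepatocyte replicate 1.

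Hepatoblast replicate 1, with the highest level of Tgfb1, also had the highest sums of blood cell markers among the hepatoblast libraries. Hepatoblast replicate 1 held 2640 CPM over 10 erythroid markers, 198 CPM over 9 macrophage markers against 47.4 to 61.2 in the other hepatoblast libraries, and 60.0 CPM over 6 megakaryocyte and platelet markers against 13.4 to 29.6. Diff. hepatocyte replicate 1, the highest of its group for Tgfb1, likewise held 157 CPM of macrophage markers against 21.4 to 66.8. Across Diff. hepatocyte replicates 1 to 4 the macrophage sums of 157, 66.8, 21.4 and 30.1 CPM had the order of Tgfb1. The erythroid sums of hepatoblast replicates 1 to 4, at 2640, 525, 427 and 318 CPM, also had the order of Tgfb1. Macrophage sums did not have it in hepatoblasts, where replicate 2 was second for Tgfb1 and lowest for these markers. In mature hepatocytes replicates 1 and 3 were highest for both. As a group, mature hepatocytes held 108 to 217 CPM of macrophage markers and the lowest mean of Tgfb1. Single macrophage markers differed, as Clec4f was at 33.9 to 69.7 CPM in mature hepatocytes against 1.13 to 4.87 in hepatoblasts. Adgre1, at 4.84 to 10.9 CPM in mature hepatocytes against 9.2 to 34.8 in hepatoblasts, was not higher. In these bulk libraries fewer cells of a type and less RNA per cell cannot be told apart, and the part of other cell types in the level of Tgfb1 was not tested.

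Tgfb2, at chr1:186622792-186705989 (− strand), encodes the ligand that binds well only with the co-receptor betaglycan, the product of Tgfbr3. Hepatoblasts held 1.71, 1.85, 2.27 and 2.12 CPM and Diff. hepatocytes 14.2, 8.61, 10.3 and 6.02 CPM. In mature hepatocytes 0.343, 0.193, 0.175 and 0.186 CPM were left, from 14 counts in 4 libraries. Every Diff. hepatocyte library was above every hepatoblast library, and every hepatoblast library was above every mature library. Tgfb2 rose in Diff. hepatocytes by 2.30 on the log2 scale (SE 0.25, adjusted p = 3.97e-06 in edgeR), and the ratio of mean CPM was 4.91. It fell by 3.13 on that scale in mature hepatocytes against hepatoblasts (SE 0.34, adjusted p = 2.08e-06 in edgeR). The mean CPM of hepatoblasts was 9.0 times the pooled CPM of the mature libraries, with a 95% Poisson interval of 5.37 to 16.5. That of Diff. hepatocytes was 44.3 times the pooled mature CPM, with an interval of 26.4 to 80.9. Both intervals cover only the counting error of the mature libraries. All 3 calls of Tgfb2 held without each library in turn.

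Tgfb3, at chr12:86056745-86079041 (− strand), encodes the third ligand, which is known from mesenchymal cells. Hepatoblasts held 3.22, 3.08, 5.28 and 2.78 CPM, and Diff. hepatocytes held 18.9, 8.05, 15.2 and 6.9 CPM, replicates 1 and 3 above replicates 2 and 4. Mature hepatocytes held 7 counts in all, with 0 counts in replicate 1 and at most 0.233 CPM in the other libraries. The groups did not overlap in any pair. Tgfb3 rose in Diff. hepatocytes by 1.77 on the log2 scale (SE 0.35, adjusted p = 0.000764 in edgeR), a ratio of mean CPM of 3.41, which was not called by a test against the fold limit (glmTreat). Its log2 fold change in mature hepatocytes was -4.96 (SE 0.57, adjusted p = 3.35e-06 in edgeR). The mean CPM of hepatoblasts was 32.5 times the pooled CPM of the mature libraries, with an interval of 15.8 to 80.9. That of Diff. hepatocytes was 111 times the pooled mature CPM, with an interval of 53.9 to 276. Of the exon bases of Tgfb3, 12.4% lie under the predicted genes Gm37804 and Gm48008 on the other strand, which held 0 to 2 counts in any library.

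The summed level of mesenchymal and stellate cell markers was lowest in the mature hepatocytes, in which Tgfb2 and Tgfb3 were near 0. Over 9 such markers the sum was 911 to 1580 CPM in hepatoblasts, 588 to 917 in Diff. hepatocytes and 62.4 to 94.7 in mature hepatocytes, with no marker at 0 in every library of a group. Reln made up most of the sum in hepatoblasts, at a mean of 864 CPM, against 93.0 in Diff. hepatocytes. The fibrillar collagen gene Col3a1 had means of 280, 477 and 8.25 CPM in the 3 groups and so did not follow the order of the sum. Single markers went other ways, as the stellate cell gene Lrat was at 3.15 to 8.7 CPM in mature hepatocytes against 1.67 to 2.53 in hepatoblasts and 0.904 to 1.38 in Diff. hepatocytes, and Dcn at 23.3 to 36.7 CPM in mature hepatocytes overlapped hepatoblasts at 27.4 to 43.8. Bile duct markers summed to 26.7 to 35.7 CPM in hepatoblasts, 92.7 to 232 in Diff. hepatocytes and 37.3 to 65.9 in mature hepatocytes. Among them Sox9 did not separate the first 2 groups, at 3.22 to 6.02 and 4.29 to 5.45 CPM. The paper reports that Dlk1+ cells from E14.5 livers included cells positive for Sox9. The part of mesenchymal or bile duct cells in the levels of Tgfb2 and Tgfb3 was not tested.

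**Figure D2:**
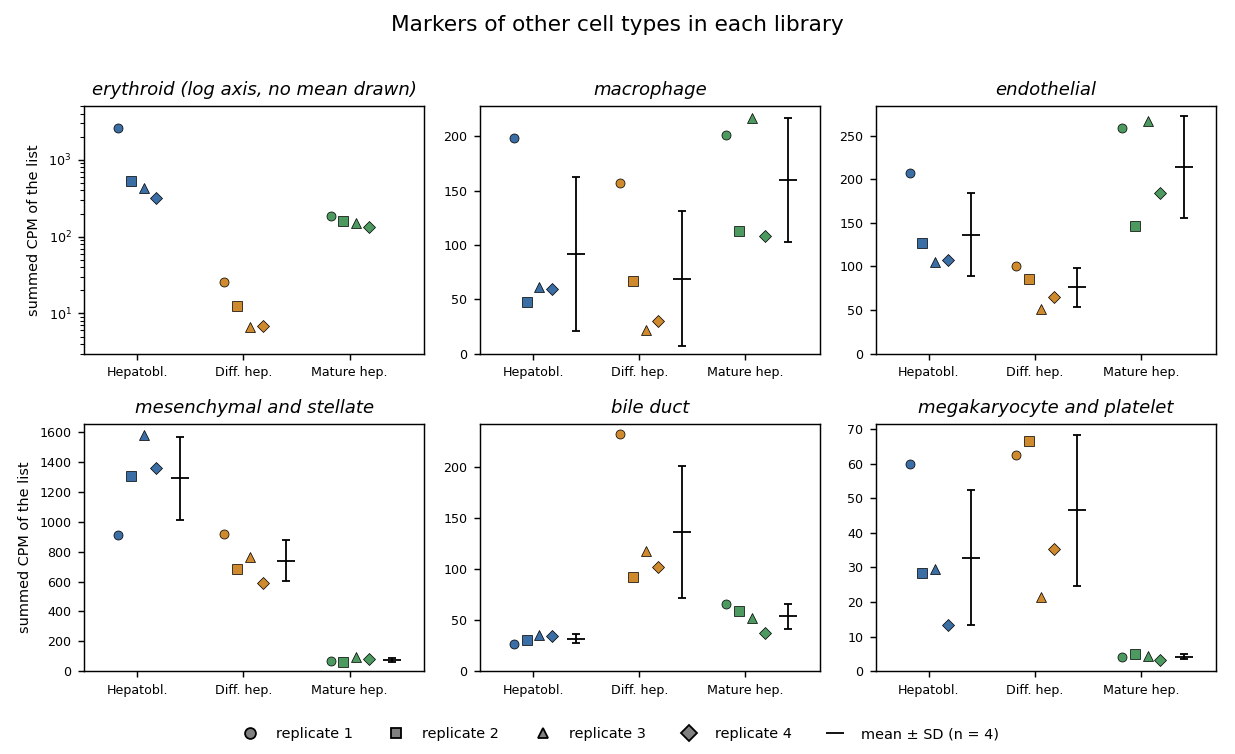
Summed CPM of marker genes of 6 other cell types in each library (vertical axis from 0, or a log axis for the erythroid list, for which no mean is drawn), by group, with the mean ± SD of 4 libraries. Hepatoblast replicate 1 has the highest erythroid sum at 2640 CPM, and the mesenchymal sum is 62.4 to 94.7 CPM in mature hepatocytes against at least 588 in the other groups.

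Neither receptor gene was called in any comparison by edgeR or DESeq2, and 1 difference, that of Tgfbr2 between Diff. and mature hepatocytes, had an unadjusted p under 0.05 in edgeR. Tgfbr1, the type I receptor at chr4:47353222-47414931 (+ strand), stood at 30.4, 40.6, 38.6 and 38.2 CPM in hepatoblasts, 52.4, 40.9, 40.4 and 41.2 in Diff. hepatocytes, and 37.3, 39.6, 38.3 and 45.1 in mature hepatocytes. The ranges overlapped throughout, and the log2 fold changes were 0.24 (SE 0.11) in Diff. hepatocytes and 0.12 (SE 0.11) in mature hepatocytes against hepatoblasts, with adjusted p values of 0.0784 and 0.368 in edgeR. The sign of these small differences depended on the scaling, as library totals in place of TMM gave -0.07 and -0.73 while they moved the median gene by -0.32 and -0.847. Tgfbr2, the ligand-binding type II receptor at chr9:116084293-116175360 (− strand), was present at 36.0, 40.7, 49.2 and 50.4 CPM in hepatoblasts and 64.0, 47.0, 52.3 and 51.2 CPM in Diff. hepatocytes. Mature hepatocytes spread more widely, at 20.4, 48.4, 26.6 and 34.6 CPM. The difference of Diff. from mature hepatocytes was 0.72 on the log2 scale (SE 0.21, adjusted p = 0.0096 in edgeR), which passed the limit on p and not that on fold change, and mature replicate 2 lay inside the range of the Diff. hepatocytes. With library totals it was 1.24 and called, with the median gene moved by 0.527, and the log2 fold change of mature hepatocytes against hepatoblasts went from -0.44 to -1.27, which was called.

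Of the inhibitory Smads, feedback inhibitors of the receptors, Smad7 was called in mature hepatocytes and Smad6 was not. Smad6, at chr9:63953076-64022059 (− strand), acts mainly on the BMP branch. It was present at 12.4, 14.2, 14.2 and 15.5 CPM in hepatoblasts, 14.0, 10.3, 11.2 and 9.81 in Diff. hepatocytes and 8.43, 5.71, 8.58 and 13.7 in mature hepatocytes. These ranges overlapped in all 3 pairs, and the log2 fold change of mature hepatocytes against hepatoblasts was -0.63 (SE 0.21, adjusted p = 0.0162 in edgeR). With library totals the value was -1.50 and was called.

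Smad7, on chromosome 18 at chr18:75367529-75395935 (+ strand), encodes the inhibitor of both branches that directs ubiquitin ligases to the type I receptor. Hepatoblasts held 16.3, 18.0, 24.2 and 23.0 CPM, and Diff. hepatocytes held 19.2, 11.2, 16.8 and 11.1 CPM. Mature hepatocytes held 59.7, 30.5, 31.8 and 71.1 CPM, each above every other library, with replicates 1 and 4 about 2 times as high as replicates 2 and 3. In mature hepatocytes Smad7 rose against hepatoblasts by 1.24 (log2, SE 0.28, adjusted p = 0.00116 in edgeR), and Diff. hepatocytes stood below mature hepatocytes, at a log2 difference of -1.73 (SE 0.28, adjusted p = 0.000124 in edgeR). The rise against hepatoblasts was 0.99 without mature replicate 4 and 0.38 with library totals, and neither was called. Diff. hepatocytes did not differ by call from hepatoblasts, at a log2 fold change of -0.48 (SE 0.28, adjusted p = 0.151 in edgeR).

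Id2 and Id3 were called higher in mature hepatocytes and Id1 was not, and the difference between these genes was not tested. None of the 3 was called in Diff. hepatocytes against hepatoblasts by edgeR or DESeq2 or had an unadjusted p under 0.05 in edgeR. Id1, at chr2:152736251-152737410 (+ strand), is the Id gene most often used as a readout of BMP signals. Its level was 17.4, 13.4, 19.5 and 18.2 CPM in hepatoblasts, 21.0, 10.6, 17.9 and 14.3 in Diff. hepatocytes and 23.9, 4.62, 3.44 and 7.76 in mature hepatocytes. Mature replicate 1 was the highest library of all 12 for this gene and the other mature libraries were the lowest, so that the group mean of 9.92 CPM had an SD of 9.47. The log2 fold change of mature hepatocytes against hepatoblasts was -0.80 (SE 0.46, adjusted p = 0.136 in edgeR). Without mature replicate 1 it was -1.71 and was called, and that of Diff. against mature hepatocytes then was 1.60 and was called. With library totals the former was -1.68 and was called.

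Id2, at chr12:25093799-25097140 (− strand), is known as a progenitor gene of many tissues. Per kilobase of exon it had the highest mean level of the 10 genes in each group. Hepatoblasts held 65.3, 70.8, 78.9 and 83.3 CPM and Diff. hepatocytes 97.2, 75.4, 82.7 and 81.8 CPM, with overlap. In mature hepatocytes 346, 136, 199 and 221 CPM were measured, all above the other groups. Id2 rose in mature hepatocytes by 1.60 on the log2 scale (SE 0.22, adjusted p = 1.75e-05 in edgeR), a ratio of mean CPM of 3.02. Diff. hepatocytes lay below mature hepatocytes, with a difference of -1.42 (SE 0.22, adjusted p = 6.63e-05 in edgeR). With library totals these values were 0.73 and -0.87, in the same direction and below the limit on fold change.

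Id3, at chr4:136143497-136145755 (+ strand), had the largest log2 fold change of the Id genes. Hepatoblasts held 20.2, 15.8, 20.5 and 17.5 CPM and Diff. hepatocytes 26.1, 11.0, 18.0 and 14.1 CPM. Mature hepatocytes held 150, 71.9, 124 and 111 CPM, and the lowest of them was above the highest other library. The log2 fold change in mature hepatocytes was 2.62 (SE 0.26, adjusted p = 7.7e-07 in edgeR), a ratio of 6.17, and that of Diff. against mature hepatocytes was -2.72 (SE 0.26, adjusted p = 9.21e-07 in edgeR). Both calls held without each library in turn and with library totals. The 8 endothelial markers summed to 146 to 267 CPM in mature hepatocytes against 105 to 207 in hepatoblasts and 51.6 to 101 in Diff. hepatocytes. Most, such as Kdr and Stab2, were higher on average in mature hepatocytes than in hepatoblasts. Stab1, at 35.9 to 59.4 against 64.2 to 73.1 CPM, and Lyve1, at 2.61 to 5.78 against 3.88 to 18.1 CPM, went the other way. Stab1, at 46.7 to 92.5 CPM, made up most of the sum in Diff. hepatocytes. The part of endothelial cells in the levels of the Id genes and Smad7 was not tested.

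**Figure D3:**
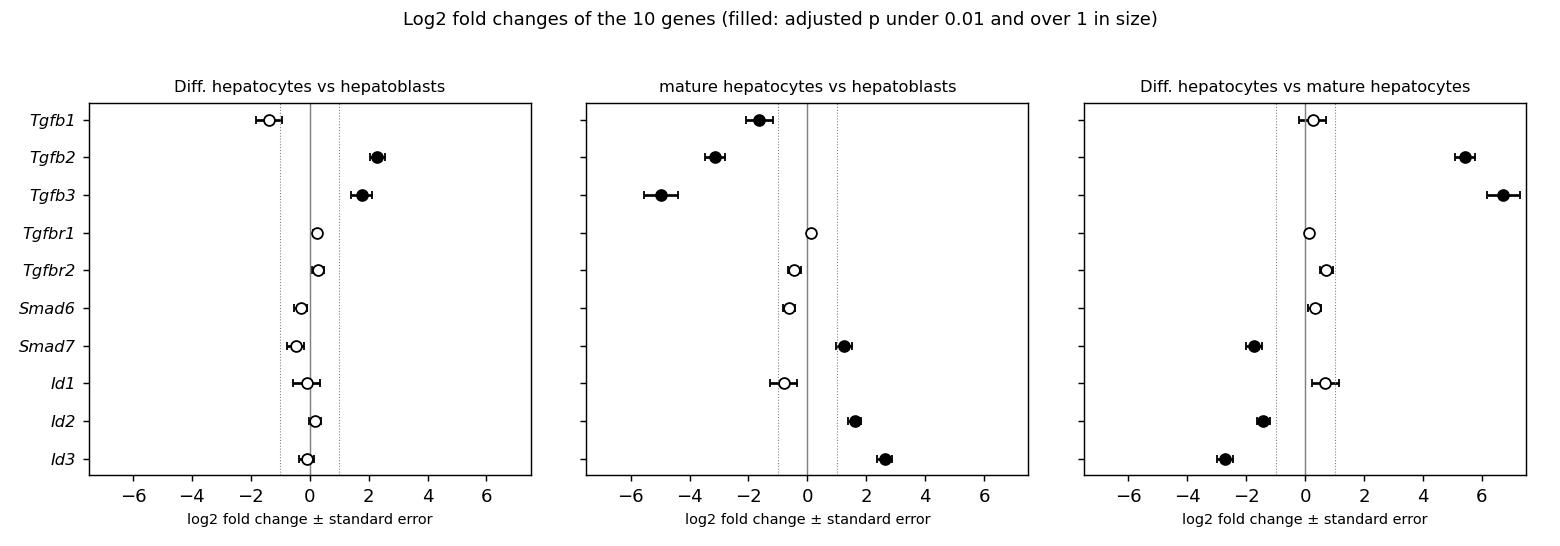
Log2 fold change of each of the 10 genes in the 3 comparisons (horizontal axis) with the standard error of the edgeR fit, filled where called and dotted lines at a log2 fold change of 1 in either direction. Tgfb2 and Tgfb3 are above 0 in both comparisons of Diff. hepatocytes, and Tgfbr1 lies within 0.24 of 0 throughout.

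Promoter sequence was read for the genes whose starts are listed in the RefSeq table of GRCm38.p6, which held 7 of the 10. In the 250 bases before each start, 3 short motifs were searched on both strands: GGCGCC, known from BMP-responsive elements of Id genes and held by 9.6% of 32851 promoters of that length, CAGAC, the longer form of the Smad-binding element, held by 42.2%, and CANNTG, the E-box bound by bHLH factors, held by 66.2%. Id2 had 1 GGCGCC 231 bases before its start and no CAGAC, Tgfb2 had 2 CAGAC, 221 and 204 bases before its start, and Tgfbr1, whose level was not called in any comparison, had 1 GGCGCC 233 bases before its first listed start. Tgfbr2, also not called, had 1 CAGAC 160 bases before its start, and the second listed start of Tgfbr1 had 1 at 203 bases. Id3 had 2 CAGAC and no GGCGCC, its window and that of Id2 lie inside the annotated genes, and Tgfb1 and Smad6 had none of the 3. CANNTG occurred 1 time in Id2, 196 bases before its start, and 1 time in Tgfb2, at 51 bases. The second listed start of Tgfbr1 had 1 at 238 bases, and Id3, Tgfbr2 and the first start of Tgfbr1 had none. The stretches that lie outside annotated exons are printed for 3 genes as examples. These are Id2, called higher in mature hepatocytes than in both other groups, Tgfb2, called in all 3 comparisons, and Tgfbr1, called in none. They run 5′ to 3′ on the strand of the gene with GGCGCC or CAGAC in capitals. A match of letters is a description and not a bound site.
Id2, chr12:25096254-25096342 (GRCm38.p6, − strand): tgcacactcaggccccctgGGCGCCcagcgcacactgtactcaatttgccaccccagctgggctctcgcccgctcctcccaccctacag
Tgfb2, chr1:186706157-186706239 (GRCm38.p6, − strand): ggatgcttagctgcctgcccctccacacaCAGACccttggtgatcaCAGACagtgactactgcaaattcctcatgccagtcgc
Tgfbr1, chr4:47352972-47353221 (GRCm38.p6, + strand): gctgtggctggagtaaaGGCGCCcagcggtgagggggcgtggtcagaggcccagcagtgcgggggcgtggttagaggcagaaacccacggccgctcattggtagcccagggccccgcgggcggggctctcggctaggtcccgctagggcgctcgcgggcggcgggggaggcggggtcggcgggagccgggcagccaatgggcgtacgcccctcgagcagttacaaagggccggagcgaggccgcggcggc

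Levels of the 10 genes were set in order as CPM per kilobase of exon, which allows a comparison between genes. In hepatoblasts Id2 led at 30.6 ± 3.31 CPM per kilobase (SD, n = 4), followed by Id1 at 14.8 and Id3 at 10.3, each apart from the next. Tgfbr1, Tgfbr2, Smad7, Smad6 and Tgfb1 lay between 5.65 and 4.05, each overlapping the next, and Tgfb3 at 1.06 and Tgfb2 at 0.343 were apart below them. Tgfb1, at 4.05 ± 3.41, overlapped Smad6 only through hepatoblast replicate 1, which held 46.1 CPM against 9.84 to 13.7 CPM in the other hepatoblast libraries. Diff. hepatocytes kept Id2 first at 34.6 and put Tgfb1 last at 1.55, beside Tgfb2 at 1.69, with Tgfb3 at 3.62 among the inhibitory Smads at 3.53 and 3.23. In mature hepatocytes Id2 at 92.5 and Id3 at 63.7 overlapped and were apart from all others, Smad7 followed at 10.7, and Tgfb2 at 0.0387 and Tgfb3 at 0.0312 were last and overlapped. By this measure the lead of Id1 over Id3 in hepatoblasts was turned in mature hepatocytes, where Id1 stood at 8.55.

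The genes most like each of the 10 were found among 13153 genes with a mean of at least 1 CPM, by the root mean square difference of centred log2 CPM over the 12 libraries. Tgfb2 was nearest to S100a11 at 0.21, Fbln5 at 0.23 and F2rl1 at 0.24, beside a spread of Tgfb2 itself of 2.05. Tgfb3 was nearest to the matrix genes Fmod at 0.36, Fstl1 at 0.41 and Col5a2 at 0.43. Id2 was nearest to Pcdh1 and Stard13, both at 0.22, and Leap2 at 0.23, and Smad7 to the glutathione transferase genes Gstt1 at 0.22 and Gstt3 at 0.28. Among the genes nearest to Tgfb1 were Rab27a at 0.23 and Nrros, a gene whose product tethers latent TGF-β on myeloid cells, at 0.25. Id3 had Crot at 0.29, and Id1 had no gene nearer than Fbxl7 at 0.48.

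The wider pathway was described with a list of 89 further genes, of which 86 were tested and Acvr1c, Nog and Msx1 had too few counts. In Diff. hepatocytes against hepatoblasts 26 were called higher and 13 lower, beside 14.9% and 14.0% of all genes, with a median log2 fold change of 0.29 beside -0.01. In mature hepatocytes 21 were called higher and 22 lower, beside 20.1% and 24.7% of all genes, and the median of -0.15 was that of all genes. In Diff. against mature hepatocytes 24 were higher and 14 lower, beside 20.2% and 15.6%, with a median of 0.27 beside 0.09. The 3 comparisons share libraries, so their counts are not independent.

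**Figure D4:**
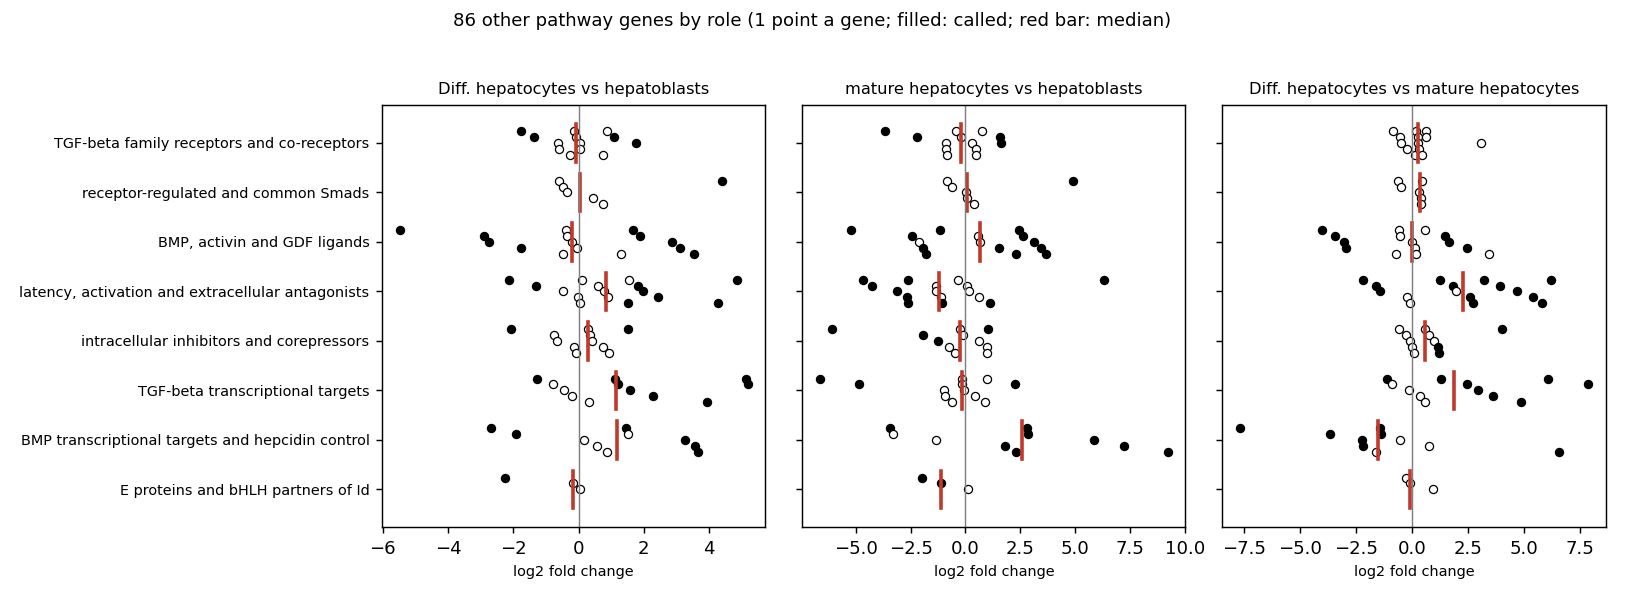
Log2 fold changes of the 86 pathway genes (horizontal axis, 1 point a gene, filled where called) by role, with the median of each role as a red bar, in the 3 comparisons. TGF-β targets have a median of 1.16 in Diff. hepatocytes against hepatoblasts, and BMP targets and hepcidin genes have a median of 2.57 in mature hepatocytes against hepatoblasts.

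Of 13 other receptors and co-receptors, 2 were called higher and 2 lower in Diff. hepatocytes, beside 14.9% and 14.0% of all genes. The numbers were the same in mature hepatocytes, beside 20.1% and 24.7%. Between the 2 hepatocyte groups 0 were called by edgeR or DESeq2, where edgeR called 20.2% of all genes higher and 15.6% lower. Of the 13, 6 had an unadjusted p under 0.05 there. Hfe2, the hemojuvelin gene whose product is a BMP co-receptor of hepatocytes, had means of 29.7, 100 and 89.8 CPM in hepatoblasts, Diff. and mature hepatocytes, and it rose by 1.76 and 1.60 on the log2 scale against hepatoblasts. Tgfbr3, the betaglycan gene, fell from a mean of 45.4 CPM to 13.4 and 9.87 CPM, with log2 fold changes of -1.76 and -2.20, and its groups of libraries at 42.1 to 48.2, 12.9 to 14.2 and 7.68 to 11.0 CPM did not overlap. Eng, a co-receptor known from endothelium, rose by 1.59 in mature hepatocytes.

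Among the 6 receptor-regulated and common Smads 1 was called higher in Diff. and in mature hepatocytes than in hepatoblasts, beside 14.9% and 20.1% of all genes. None was called lower, beside 14.0% and 24.7%, and none was called between the 2 hepatocyte groups, beside 20.2% and 15.6%. The called gene was Smad9, the BMP branch Smad also named Smad8. It was at 1.00 to 1.23 CPM in hepatoblasts, 19.3 to 26.1 in Diff. hepatocytes and 27.6 to 35.7 in mature hepatocytes. The rise was 4.39 in Diff. hepatocytes (log2, SE 0.14, adjusted p = 8.92e-11 in edgeR) and 4.88 in mature hepatocytes (SE 0.14, adjusted p = 8.28e-12 in edgeR). Smad1 to Smad5 were not called in any of the 3 comparisons by edgeR or DESeq2, and 2 to 4 of the 6 had an unadjusted p under 0.05 in each direction that held no call.

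The list of BMP, activin and GDF ligands held 15 genes, with Bmp1, which encodes a protease and not a ligand, counted among them. Of the 15, 5 were called higher and 4 lower in Diff. hepatocytes (14.9% and 14.0% of all genes). In mature hepatocytes 7 were called higher and 5 lower (20.1% and 24.7% of all genes). Inhbe, the gene of the activin βE subunit of hepatocytes, rose in both, from a mean of 6.95 CPM to 81.5 and 76.3 CPM. Inhbc, the activin βC subunit gene, had means of 6.89 CPM in hepatoblasts and 5.34 in Diff. hepatocytes against 86.7 in mature hepatocytes, and the log2 difference of Diff. from mature hepatocytes was -4.02 (SE 0.17, adjusted p = 4.02e-10 in edgeR). Gdf15 had means of 98.4, 13.4 and 145 CPM, with the Diff. hepatocytes called below both other groups. Bmp7 fell from a mean of 19.8 CPM to 0.438 in Diff. hepatocytes, with 3.66 CPM in mature hepatocytes.

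Latency, activation and extracellular antagonist genes were called higher 6 times and lower 2 times among 16 in Diff. hepatocytes (14.9% and 14.0% of all genes), and 2 times higher and 7 times lower in mature hepatocytes (20.1% and 24.7% of all genes). Ltbp2 encodes a matrix protein of the latent TGF-β binding protein family that, despite the name, is not known to bind latent TGF-β. It was at 0.627 to 1.04 CPM in hepatoblasts, 10.9 to 23.2 in Diff. hepatocytes and 0.124 to 0.759 in mature hepatocytes. The rise of Ltbp2 in Diff. hepatocytes was 4.27 on the log2 scale (SE 0.35, adjusted p = 2.61e-07 in edgeR). Thbs1, whose product can activate latent TGF-β, had a mean of 185 CPM in Diff. hepatocytes against 3.32 in mature hepatocytes. In hepatoblasts Thbs1 spread from 25.7 to 143 CPM, with the top value in replicate 1. Fstl1 rose to 128 CPM in Diff. hepatocytes from 44.6 and was at 1.75 CPM in mature hepatocytes.

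The 11 intracellular inhibitors and corepressors held few calls, 1 higher and 1 lower in Diff. hepatocytes, where 14.9% and 14.0% of all genes were called, and 1 higher and 3 lower in mature hepatocytes, where 20.1% and 24.7% were. Tgif2, a corepressor gene, was called lower in both, with means of 3.58, 0.849 and 0.0463 CPM. The ubiquitin ligase gene Smurf1, whose product works with Smad7, was the gene called higher in mature hepatocytes, with means of 17.9, 34.0 and 36.6 CPM.

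Of 12 genes known as TGF-β targets, 7 were called higher and 1 lower in Diff. hepatocytes than in hepatoblasts, beside 14.9% and 14.0% of all genes, and the median change was 1.16 on the log2 scale. The counts against mature hepatocytes were also 7 and 1, beside 20.2% and 15.6% of all genes, with a median of 1.85. The gene called lower there was Klf10, at a log2 fold change of -1.12. In mature hepatocytes against hepatoblasts 1 was higher and 2 were lower, beside 20.1% and 24.7% of all genes, with a median of -0.15. Cdkn2b was the higher gene, at a log2 fold change of 2.24 with overlapping libraries. Snai1 and Col1a1 were the lower genes, at -4.87 and -6.64. Fn1, the fibronectin gene, had ranges of 2160 to 3540, 5820 to 6840 and 2430 to 2930 CPM in hepatoblasts, Diff. and mature hepatocytes. Cdkn1a, the p21 cell cycle inhibitor gene, was at a mean of 12.2 CPM in hepatoblasts and 186 in Diff. hepatocytes, a log2 fold change of 3.93 (SE 0.45, adjusted p = 6.2e-06 in edgeR), and at 1.73 to 14.8 CPM in mature hepatocytes. Col1a1 rose by 1.21 in Diff. hepatocytes (log2, SE 0.32, adjusted p = 0.00568 in edgeR), with overlap of their libraries and those of hepatoblasts. It was at 1.92 to 4.36 CPM in mature hepatocytes, in which the summed mesenchymal markers were lowest.

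BMP targets and genes of hepcidin control, 10 in all, were called higher 4 times and lower 2 times in Diff. hepatocytes, beside 14.9% and 14.0% of all genes, and 7 times and 1 time in mature hepatocytes, beside 20.1% and 24.7%, with medians of 1.17 and 2.57. Between Diff. and mature hepatocytes 1 was called higher and 6 lower, beside 20.2% and 15.6% of all genes, with a median of -1.53. Hamp, the hepcidin gene, was at 7.55 to 11.0 CPM in hepatoblasts, 36.3 to 219 in Diff. hepatocytes and 950 to 2450 in mature hepatocytes, and its log2 fold changes against hepatoblasts were 3.56 (SE 0.53, adjusted p = 7.33e-05 in edgeR) and 7.24 (SE 0.63, adjusted p = 2.06e-07 in edgeR). Atoh8, a BMP-induced transcription factor gene, went from a mean of 0.677 CPM to 8.63 and 39.7 CPM. Tfr2, a transferrin receptor gene of the iron sensor, had means of 98.6, 271 and 710 CPM, and Tmprss6, whose product cleaves hemojuvelin, had means of 129, 191 and 910 CPM. Hfe was at means of 11.7, 21.5 and 58.5 CPM. Hamp, Atoh8 and Tfr2 were called in all 3 comparisons, and each was higher in mature than in Diff. hepatocytes and higher in these than in hepatoblasts.

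**Figure D5:**
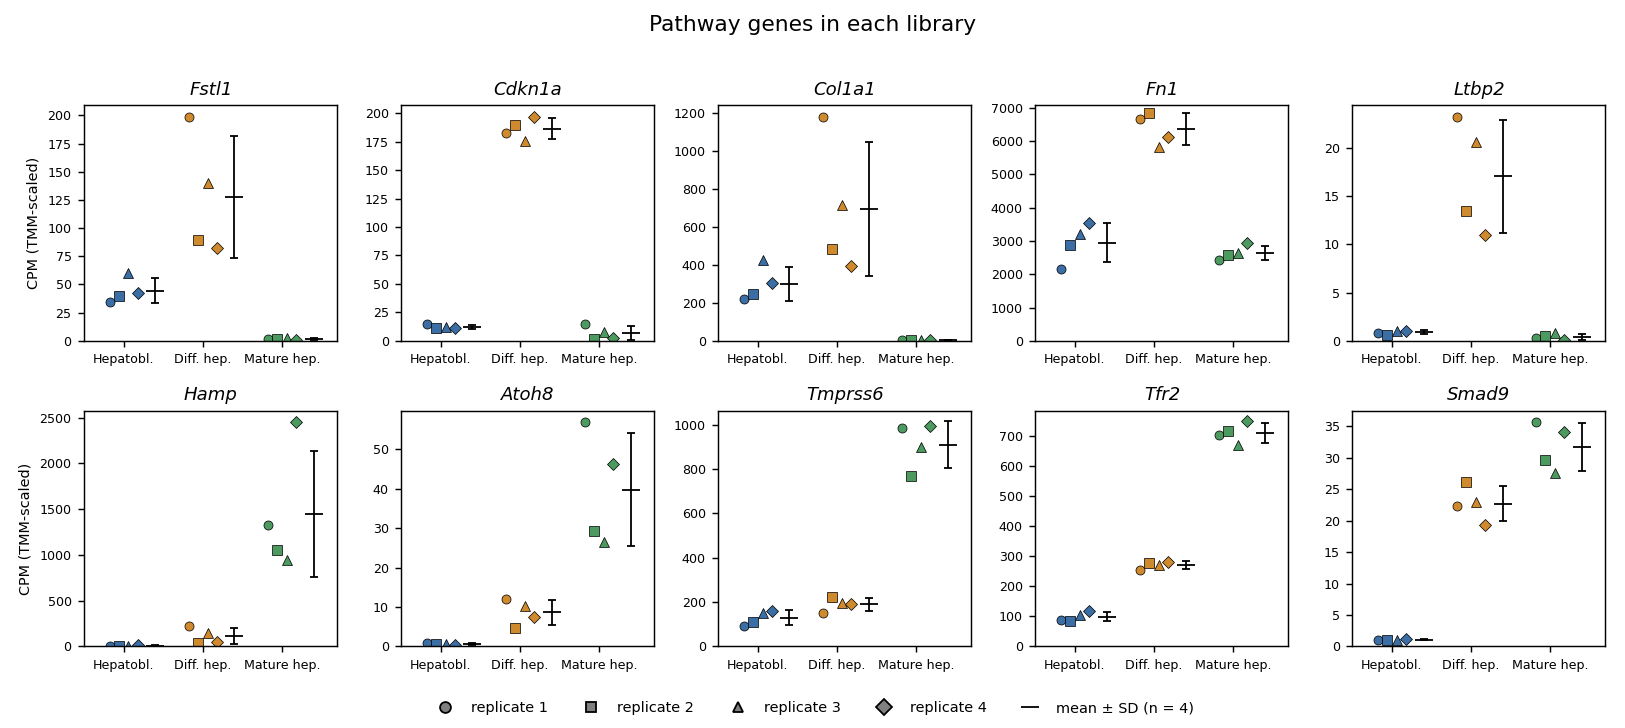
CPM after TMM scaling (vertical axis, from 0) of 10 named pathway genes in each library, by group, with the mean ± SD of 4 libraries. Of these genes, chosen as examples, Cdkn1a, Col1a1 and Fn1 of the TGF-β targets have their highest mean in Diff. hepatocytes. So do Fstl1 and Ltbp2 of the latency, activation and extracellular antagonist genes. Hamp, Atoh8, Tmprss6, Tfr2 and Smad9 have theirs in mature hepatocytes. Not every TGF-β target had its highest mean in Diff. hepatocytes, as Klf10, not drawn, was called lower there than in mature hepatocytes.

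The E protein genes, whose products are bound by Id proteins, were 3 in the list. Tcf3 fell from a mean of 109 CPM in hepatoblasts to 23.2 in Diff. hepatocytes and 27.9 in mature hepatocytes, with log2 fold changes of -2.24 (SE 0.12, adjusted p = 5.19e-09 in edgeR) and -1.97 (SE 0.11, adjusted p = 4.4e-09 in edgeR). Tcf12 had means of 61.1, 54.7 and 28.6 CPM and fell by 1.10 in mature hepatocytes. Between Diff. and mature hepatocytes 0 of the 3 were called by edgeR or DESeq2, where edgeR called 20.2% of all genes higher and 15.6% lower. Of the 3, 2 had an unadjusted p under 0.05.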

How the data were processed

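Counts per gene of 12 poly(A) RNA libraries (NEBNext Ultra, 75-base single reads, HiSeq 2500) were deposited by the authors as 1 table of raw counts. The labels name FastQC 0.11.2, STAR 2.5.2b, Picard 2.10.2 and DESeq2 1.22.2 and the build GRCm38, and the study's methods Ensembl release 92; the strand setting of the counting and any batch are not given in the sources used here. Positions and exon lengths were taken from GENCODE M21, which held 53620 of 53715 identifiers. Of these genes 21338 were at 0 throughout. The 17779 genes that exceeded 10 counts in at least 1 library were fitted in 1 model of 3 groups with edgeR 4.0.16 (TMM, quasi-likelihood, R 4.3.3), with Benjamini-Hochberg adjustment over all of them in each comparison. The fit was tested on simulated data. CPM use TMM-scaled library sizes. Replicates are biological by the study's methods. The members and gene lists were chosen with earlier results of these data known. Pathway genes were named as the up to 4 called genes of each role and comparison with the highest mean CPM, and the 3 nearest genes were found for each member; a few of these are not reported here. Alternatives were DESeq2 1.42.0, a test against the fold limit (glmTreat), other scalings, filters, thresholds and samples, a replicate block, and leaving out each library. Markers of T, B and NK cells summed to at most 2.68 CPM in any library. Poisson intervals are exact and cover only the counting error of the mature libraries. No library pair of a group was alike within sampling noise.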

Additional observations from a re-analysis of the deposited data

Results flagged for a closer look

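Among the 141 sets of 4 libraries formed by 47 genes in 3 groups, 10 held a library set apart from the other 3 by Dixon's test at the 95% level (a large gap relative to the range), where about 7 would be by chance at 1 in 20. Of the 30 sets of the 10 genes, 3 did: Tgfb1 at 46.1 CPM in hepatoblast replicate 1, Tgfb2 at 0.343 CPM in mature replicate 1, and Tgfbr1 at 52.4 CPM in Diff. hepatocyte replicate 1. That value of Tgfb2 rests on 5 counts, against 3 in each other mature library, a gap within reach of counting error. Hepatoblast replicate 1 was also set apart for Thbs1 at 143 CPM and Gata2 at 4.29 CPM. Diff. hepatocyte replicate 1 was set apart for Itgav at 135 CPM and Snai1 at 3.2 CPM on the high side and for Inhbc at 4.02 CPM on the low side. Bmpr1b stood at 0.0686 CPM in mature replicate 1, which is 1 count, and Hfe at 23.4 CPM in Diff. hepatocyte replicate 4. The cause of these gaps was not tested.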

How the results depend on the processing

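Of 132 repeated counts of called genes, 123 stayed within 1.5 times. A test against the fold limit (glmTreat) called 1 of the 10 genes in Diff. hepatocytes against hepatoblasts and 3 against mature hepatocytes, and 23 pathway genes in the former. The calls lost were Tgfb3 in the former, Smad7 and Id2 in the latter, and Tgfb1 and Smad7 in mature hepatocytes against hepatoblasts. Requiring 10 counts in every library left Tgfb2 and Tgfb3 untested and called 0 and 3 of the 10 genes and 25 and 24 pathway genes in those comparisons. An adjusted p under 0.05 with no fold limit called 60 and 59 pathway genes. Leaving out each library called 2 to 3, 4 to 6 and 5 to 6 of the 10 genes in the 3 comparisons in the order of the report.

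Library totals in place of TMM factors moved the median log2 fold change of all genes by -0.32, -0.847 and 0.527, and the share of calls that were higher went from 51.5%, 44.9% and 56.4% to 35.4%, 20.2% and 75.6%. Totals without the 50 most abundant genes moved the median by -0.109, -0.666 and 0.557, with shares of 46%, 24.5% and 76.5%. Under library totals the log2 fold changes of Tgfbr1, Tgfbr2 and Id2 in Diff. hepatocytes against hepatoblasts turned to -0.07, -0.03 and -0.14, and that of Tgfbr1 in mature hepatocytes turned to -0.73, to -0.55 without the 50 genes and to -0.01 with 10 counts in every library. The rise of Smad7 in mature hepatocytes was 0.38 and 0.56 under these scalings, and that of Id2 0.73 and 0.92, without calls. Leaving out libraries gave ranges that crossed 0 in Diff. hepatocytes against hepatoblasts for Id1 (-0.26 to 0.04) and Id3 (-0.36 to 0.06), and against mature hepatocytes for Tgfb1 (-0.10 to 0.42). Tgfb1 in mature hepatocytes ranged from -1.89 to -0.87 and lost its call without hepatoblast replicate 1 or without any 1 mature library. The cause of these changes was not tested.

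With the replicate number as a block, 3, 6 and 5 of the 10 genes were called, the added call being Tgfb1 in Diff. hepatocytes at -1.22, and 40, 44 and 37 pathway genes. Correlations of same-numbered libraries of hepatoblasts and Diff. hepatocytes were 0.324, -0.059, 0.246 and 0.184 for replicates 1 to 4, with the best match at the same number in all but replicate 2, a hint from the data and not from the labels. In the other comparisons they ran from -0.081 to 0.092. The numbers were not treated as pairs, since not every pair exceeded 0.1.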

Other observations

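Across the Diff. hepatocyte libraries, replicate 1 was the highest of its group for all 10 genes, where it was the highest for 32.7% of all 17779 genes tested. Replicates 1 and 3 were both above replicates 2 and 4 for 8 of the 10 genes and for 20.4% of all genes. This pattern was chosen after the values were seen and is given as a description. Diff. hepatocyte replicate 1 also held the highest sums of bile duct markers, at 232 CPM against 92.7 to 118, and of mesenchymal markers, at 917 CPM against 588 to 767. Hamp followed the same order, at 219, 36.3, 146 and 47.1 CPM in replicates 1 to 4.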
